A study of Gallus gallus with 22 samples.

Results

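DUOX2, GPX2, PTGS2 and EPX, 4 of the 17007 genes in the count table, are enzymes that make or use peroxides or make prostaglandins. They were taken by identifier: DUOX2 (ENSGALG00010022419), GPX2 (ENSGALG00010021537), PTGS2 (ENSGALG00010021038) and EPX (ENSGALG00010029571). The study had grouped them under the response to oxidative stress among the DEGs of the pancreas, so their diet difference in that tissue is a description and no independent evidence. RNA came from male Ross 308 broilers fed a diet with 2% sugarcane bagasse (SB), the fibrous residue of cane milling, or the control diet without it, with tissues collected on d 24. The 22 libraries were 5 of SB pancreas, 6 of control pancreas, 6 of SB jejunum and 5 of control jejunum. All broilers were of 1 strain and sex, and each library is one of whole tissue.

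Dual oxidases sit in the apical membrane of epithelia, where they pass electrons to oxygen and release hydrogen peroxide, and they need a maturation factor (DUOXA) to leave the endoplasmic reticulum. Glutathione peroxidases reduce hydrogen peroxide to water with glutathione, whereas cyclooxygenases turn arachidonic acid into the precursor of the prostaglandins. In mammals, eosinophil peroxidase is packed into the granules of eosinophils, where it makes hypohalous acids from hydrogen peroxide.

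RefSeq's annotation of the GRCg7b assembly, matched by symbol, places GPX2 on chromosome 5 (530082 to 530888), PTGS2 on chromosome 8 (10138921 to 10147005) and EPX on chromosome 19 (953007 to 966398). The symbol DUOX2 had no entry in the table used here. On chromosome 10 that table lists DUOX1 (1066148 to 1093678), the maturation factor gene DUOXA1L (1063257 to 1071952), which overlaps it, and DUOXA2 (1056769 to 1062167). Which of these entries, if any, corresponds to the DUOX2 identifier was not tested.

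Total counts ranged from 80467800 to 300479804 in SB pancreas and from 65957320 to 166039437 in control pancreas, and the mean total of SB pancreas was 2.10 times that of control pancreas. The ratio of the geometric means was 2.04 (exact permutation test of log2 totals, two-sided, p = 0.0238). In the jejunum, total counts ranged from 42540952 to 203039911 in SB libraries and from 42998544 to 54841516 in control libraries. Even numbers made up 62.7% to 69.4% of the counts of 1 to 59 in a library, and single counts were not taken as independent molecules. Library profiles correlated at 0.919 to 0.973 within the pancreas, at 0.958 to 0.986 within the jejunum and at 0.712 to 0.788 between the tissues (Pearson's r of log2 CPM). Most marker lists for cell types, the acinar and enterocyte lists included, could not be tied to identifiers and were not analysed here, so the tissue labels were checked only by these correlations. Since the samples are bulk tissue, fewer cells of a type and less RNA per cell cannot be told apart.

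In the pancreas, the peroxide-producing DUOX2 and the prostaglandin synthase PTGS2 were higher in SB-fed than in control broilers, GPX2 was higher by a smaller margin over its spread, and EPX was lower. All 4 passed the thresholds of the study, a log2 fold change of 1 or more in either direction with an unadjusted P under 0.05, as did 1.10% of the 14116 genes tested (0.659% higher and 0.439% lower in SB). The study had picked the 4 from this comparison, so the count is not independent evidence. After Benjamini-Hochberg adjustment of edgeR's quasi-likelihood test, 0 of the 14116 genes passed 0.05, while 543 (3.85%) had an unadjusted P under 0.05, and the adjusted calls numbered 15 with DESeq2 and 0 with limma-voom. The median log2 fold change of the 4 genes was 1.27, beside -0.01 over all genes tested. Levels are given as CPM, counts relative to the library size, after TMM scaling (the trimmed mean of M-values) within the tissue. CPM does not correct for gene length, so levels are compared between groups and not between genes.

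**Figure D1:**
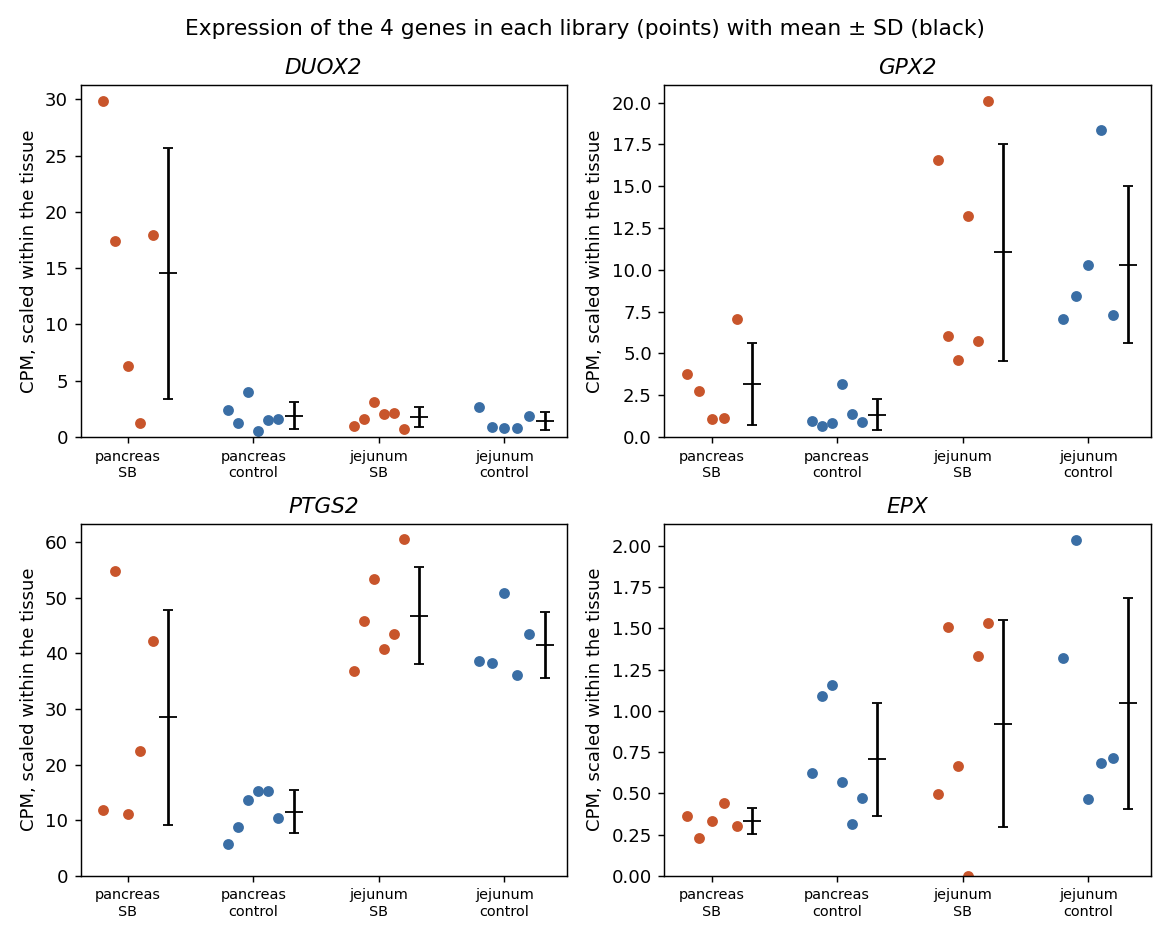
Level (CPM, scaled within the tissue) of each gene in every library, with SB libraries in orange, control libraries in blue and the mean ± SD in black. DUOX2 reached 29.8 CPM in SB pancreas against at most 3.99 CPM in control pancreas, while 1 SB library stood at 1.27 CPM. In the jejunum the diets overlapped for all 4 genes.

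DUOX2, the source of hydrogen peroxide, stood at 29.8, 17.4, 6.29, 1.27 and 18.0 CPM in the 5 SB libraries, against 0.571 to 3.99 CPM in the 6 control libraries (median 1.57). Replicates 1, 2, 3 and 5 of SB lay above every control library, and SB replicate 4 lay inside the control range. The means were 14.6 ± 11.2 CPM in SB-fed broilers and 1.90 ± 1.18 CPM in control broilers (SD, n = 5 and 6), and the log2 fold change was 2.95 ± 0.67 (SE; edgeR's quasi-likelihood test, unadjusted P = 0.000953, adjusted p = 0.942). The exact permutation test over every regrouping of the 11 libraries gave p = 0.0260 (two-sided), where the smallest p that 5 against 6 allow is 0.00216. The adjusted p was 0.00348 with the Wald test of DESeq2, whereas limma-voom gave a log2 fold change of 2.59 with an unadjusted P of 0.0559.

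GPX2, the gastrointestinal glutathione peroxidase that removes hydrogen peroxide, stood at 3.77, 2.73, 1.09, 1.13 and 7.06 CPM in SB pancreas. In control pancreas it ranged from 0.679 to 3.15 CPM (median 0.947). Only SB replicates 1 and 5 exceeded all control libraries, while all 5 SB libraries were above the control median. The means were 3.16 ± 2.46 CPM in SB-fed broilers and 1.32 ± 0.929 CPM in control broilers (SD, n = 5 and 6). The log2 fold change was 1.23 ± 0.54 (SE; edgeR's quasi-likelihood test, unadjusted P = 0.0428, adjusted p = 0.995), and the exact permutation test gave p = 0.0866. Leaving out 1 library ended the call in 8 of 11 cases, all but SB replicates 3 and 4 and control replicate 4, and with SB replicate 5 left out GPX2 had a log2 fold change of 0.73 (unadjusted P of 0.164). The call was also lost with limma-voom (unadjusted P of 0.0849) and with total counts as the only scaling (edgeR, unadjusted P of 0.0839).

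PTGS2, the inducible cyclooxygenase, stood at 11.7, 54.7, 11.2, 22.5 and 42.3 CPM in SB pancreas, against 5.65 to 15.3 CPM in control pancreas (median 12.1). Here SB replicates 2, 4 and 5 exceeded all control libraries, and replicates 1 and 3 lay below the control median. The means were 28.5 ± 19.3 CPM in SB-fed broilers and 11.5 ± 3.88 CPM in control broilers (SD, n = 5 and 6), with a log2 fold change of 1.31 ± 0.42 (SE; edgeR's quasi-likelihood test, unadjusted P = 0.00990, adjusted p = 0.995). The exact permutation test gave p = 0.0584. With SB replicate 2 left out, PTGS2 had a log2 fold change of 0.93, under the threshold of 1.

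EPX, the eosinophil peroxidase, was the one gene of the 4 with a lower level in SB-fed broilers. It stood at 0.361, 0.228, 0.334, 0.444 and 0.299 CPM in SB pancreas, against 0.317 to 1.16 CPM in control pancreas (median 0.598). With TMM, all 5 SB libraries were below the control median and replicates 2 and 5 were below every control library. The means were 0.333 ± 0.0795 CPM in SB-fed broilers and 0.706 ± 0.341 CPM in control broilers (SD, n = 5 and 6). The log2 fold change was -1.08 ± 0.34 (SE; edgeR's quasi-likelihood test, unadjusted P = 0.00859, adjusted p = 0.995), and the exact permutation test gave p = 0.0238. These levels rest on only 17 to 93 counts per library. With total counts as the only scaling, SB replicate 5 (0.261 CPM) was no longer below control replicate 5 (0.255 CPM). With the libraries thinned to the smallest pancreas total, EPX gave -1.001. The size of the difference fell below the threshold of 1 without SB replicate 2 (-0.95), control replicate 2 (-0.91) or control replicate 3 (-0.89) and with limma-voom (-0.97), and the unadjusted P of edgeR's quasi-likelihood test was 0.0630 in 1 fit over both tissues.

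None of the 4 genes separated the diets completely in the pancreas, where 0.276% of the genes tested did. Between broilers of 1 diet, DUOX2 had a within-diet SD of 1.39 on the log2 scale, larger than that of 96.0% of the genes tested, and GPX2, PTGS2 and EPX had SDs of 0.96, 0.81 and 0.57. The median SD over all genes was 0.29.

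In the jejunum, none of the 4 genes passed the thresholds, which 0.338% of 14488 genes did. There again the adjusted p of edgeR's quasi-likelihood test was under 0.05 for 0 genes, 286 (1.97%) had an unadjusted P under 0.05, and neither DESeq2 nor limma-voom made an adjusted call (0 each). The genes were picked from the pancreas and not from the jejunum, but the study's list of jejunal DEGs already held none of the 4 genes. Their median log2 fold change was 0.14, beside 0.00 over all genes tested, and every gene overlapped between the diets, as did all but 0.110% of the genes tested.

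DUOX2 in the jejunum ranged from 0.737 to 3.15 CPM in SB libraries (median 1.82) and stood at 2.65, 0.891, 0.804, 0.843 and 1.91 CPM in control libraries. The log2 fold change was 0.32 ± 0.43 (SE; edgeR's quasi-likelihood test, unadjusted P = 0.470, adjusted p = 1.00). GPX2 ranged from 4.63 to 20.1 CPM in SB libraries (median 9.62) and stood at 7.07, 8.41, 10.3, 18.4 and 7.32 CPM in control libraries. Its log2 fold change was 0.10 ± 0.41 (unadjusted P = 0.808) and changed sign under several alternatives, so no direction is given for it.

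PTGS2 in the jejunum ranged from 36.9 to 60.6 CPM in SB libraries (median 44.6) and stood at 38.7, 38.2, 50.9, 36.1 and 43.5 CPM in control libraries. With a log2 fold change of 0.17 ± 0.13 (SE; edgeR's quasi-likelihood test, unadjusted P = 0.219), it had the smallest spread of the 4 genes there, an SD of 0.23 within a diet. EPX ranged from 0 to 1.53 CPM in SB libraries (median 1.00) and stood at 1.32, 2.03, 0.468, 0.686 and 0.716 CPM in control libraries. SB replicate 4 had 0 EPX counts. If counts were independent molecules, which was not taken to hold here, this would allow up to 3 counts, or 0.0647 CPM of that library's total count. The log2 fold change of EPX was -0.11 ± 0.60 (unadjusted P = 0.854), and without that library it was 0.11.

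**Figure D2:**
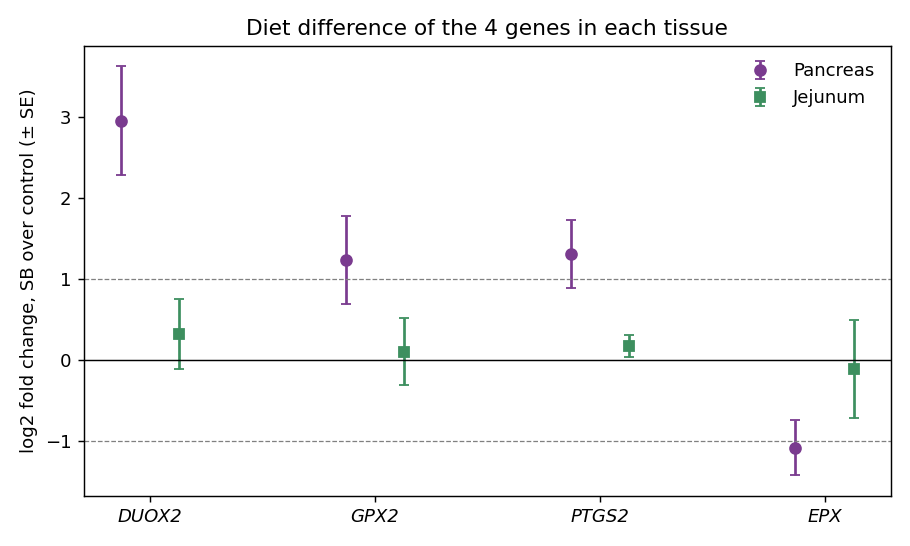
Log2 fold change of SB over control (vertical axis, ± SE) of each gene in the pancreas (circles) and the jejunum (squares), with dashed lines at the threshold of 1 in either direction. The pancreas values were 2.95, 1.23, 1.31 and -1.08 and the jejunum values 0.32, 0.10, 0.17 and -0.11, in the order DUOX2, GPX2, PTGS2 and EPX.

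An interaction term in 1 fit over the 4 groups tested whether the diet difference itself was unequal in pancreas and jejunum. This comparison contains the pancreas contrast on which the genes were picked. The diet difference of the pancreas minus that of the jejunum was 2.64 ± 0.83 for DUOX2 (log2, SE; edgeR's quasi-likelihood test, unadjusted P = 0.00434) and 1.14 ± 0.46 for PTGS2 (unadjusted P = 0.0220). These 2 of 4 genes passed the thresholds, as did 1.53% of 15032 genes tested, and the adjusted p was 1.00 for each. For GPX2 it was 1.16 (unadjusted P = 0.114) and for EPX -0.93 (unadjusted P = 0.232), and neither passed the thresholds. After adjustment, a diet difference that is unequal in pancreas and jejunum was not shown for any of the 4 genes. Over all 15032 genes, 0 passed after adjustment, 521 (3.47%) had an unadjusted P under 0.05, and DESeq2 and limma-voom made 1 and 0 adjusted calls. The DUOX2 call was lost with limma-voom (2.27), and that of PTGS2 with limma-voom (0.91), with total counts as the only scaling (0.91), with the column number shared by the tissues as a block (0.79) and without pancreas SB replicate 2 (0.76) or 5 (0.96). GPX2 passed without pancreas control replicate 4 (1.63).

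Between the tissues, DUOX2 was higher in the pancreas when averaged over the diets. PTGS2 and EPX did not pass the test with TMM, and their sign rested on where the scaling sets the zero. With TMM over the 22 libraries, DUOX2 averaged 25.95 ± 20.1 CPM in SB pancreas, 3.32 ± 2.06 CPM in control pancreas, 1.01 ± 0.503 CPM in SB jejunum and 0.806 ± 0.474 CPM in control jejunum (SD). The log2 fold change of the pancreas over the jejunum, averaged over the diets, was 3.37 ± 0.44 (SE; edgeR's quasi-likelihood test with Benjamini-Hochberg adjustment, adjusted p = 5.88e-07). It was 4.69 in SB-fed broilers (adjusted p = 1.39e-06) and 2.05 in control broilers (adjusted p = 0.00594). Averaged over the diets, DUOX2 kept this direction and an absolute log2 fold change over 1 with an adjusted p under 0.05 under every alternative run. This does not extend to control broilers alone. With total counts as the only scaling, their DUOX2 levels overlapped between the tissues (0.718 to 3.72 CPM in the pancreas, 0.788 to 2.57 CPM in the jejunum). DUOX2 was 1 of 4 genes past these thresholds with TMM, beside 40.3% of the 15032 genes tested. The genes were picked on the difference of SB pancreas from control pancreas, and the average over the diets includes SB pancreas. For all 4 genes this tissue difference is therefore not independent of that choice.

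GPX2 averaged 5.60 ± 4.31 CPM in SB pancreas, 2.32 ± 1.62 CPM in control pancreas, 6.25 ± 3.63 CPM in SB jejunum and 5.81 ± 2.56 CPM in control jejunum (SD). The log2 fold change of the pancreas over the jejunum was -0.75 ± 0.35 (SE; edgeR's quasi-likelihood test, adjusted p = 0.0591), and in control broilers alone it was -1.33 (adjusted p = 0.0241), a call that 39.6% of all genes also passed. Over both diets, with the column number shared by the tissues as a block, GPX2 gave -0.93 (adjusted p = 0.00330), still under 1 in size. SB-fed broilers alone gave -0.17 for GPX2 (adjusted p = 0.771), where 38.5% of all genes passed. PTGS2 averaged 50.4 ± 34.2 CPM in SB pancreas, 20.2 ± 6.79 CPM in control pancreas, 26.6 ± 4.84 CPM in SB jejunum and 23.5 ± 3.53 CPM in control jejunum (SD), a log2 fold change of 0.35 (adjusted p = 0.170). EPX averaged 0.592 ± 0.140 CPM in SB pancreas, 1.24 ± 0.605 CPM in control pancreas, 0.524 ± 0.359 CPM in SB jejunum and 0.592 ± 0.360 CPM in control jejunum (SD), a log2 fold change of 0.60 (adjusted p = 0.153).

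With total counts as the only scaling, the median log2 fold change of all genes between the tissues was -1.65, against -0.03 with TMM, and the log2 fold changes became 1.78 for DUOX2, -2.37 for GPX2, -1.32 for PTGS2 and -0.99 for EPX. The negative signs of PTGS2 and EPX under this scaling came with that shift of the median. Relative to the median of all genes, the log2 differences were 3.40 with TMM and 3.43 with total counts for DUOX2, -0.72 and -0.72 for GPX2, 0.39 and 0.33 for PTGS2, and 0.63 and 0.66 for EPX.

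**Figure D3:**
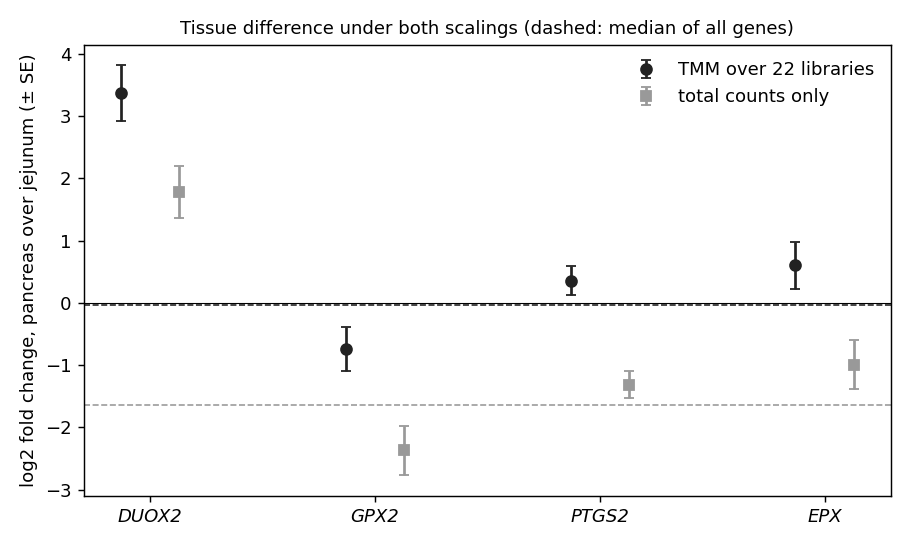
Log2 fold change of the pancreas over the jejunum (vertical axis, ± SE) of each gene with TMM over the 22 libraries (black circles) and with total counts only (grey squares), with dashed lines at the median of all genes, -0.03 and -1.65. DUOX2 was positive under both scalings (3.37 and 1.78), GPX2 was negative under both, and PTGS2 and EPX lay above the median of all genes under both although their sign changed with the shift.

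The SB pancreas libraries that stood out differed in part from gene to gene. Of the 3 genes with a higher mean in SB pancreas, all 3 exceeded every control library in 1 of 5 SB libraries, 2 of the 3 did so in 2 libraries and 1 of the 3 in the other 2 libraries. SB replicate 5 was the library with DUOX2, GPX2 and PTGS2 above and, with TMM, EPX below all control libraries. Its EPX level rested on 21 counts. With total counts as the only scaling, that level was inside the control range (0.261 CPM, against 0.255 CPM in control replicate 5). DUOX2 peaked in SB replicate 1, where PTGS2 was inside the control range, and PTGS2 peaked in SB replicate 2. SB replicate 4 had PTGS2 above and DUOX2 inside the control range, and SB replicate 3 had DUOX2 alone above it.

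**Figure D4:**
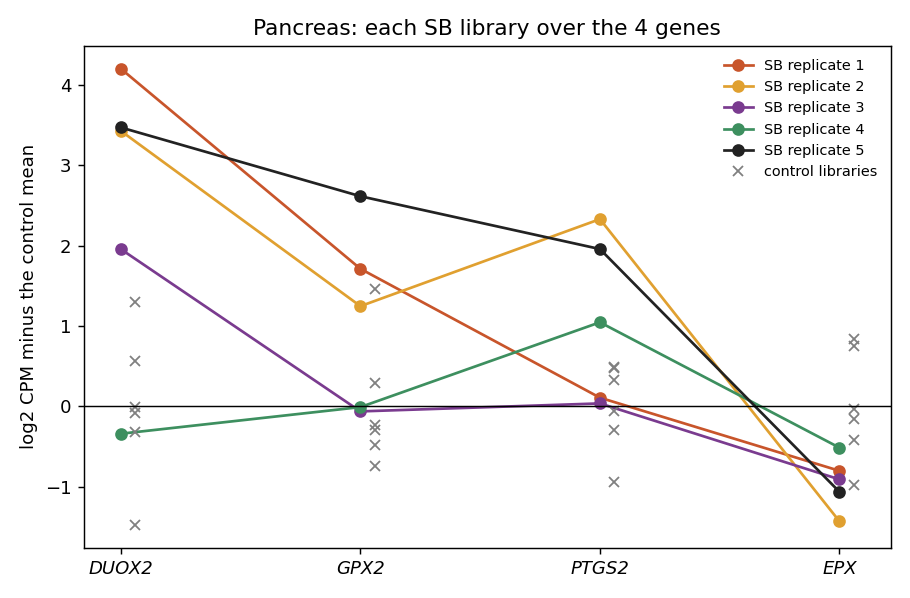
Log2 CPM minus the mean of the control pancreas libraries (vertical axis) for the 4 genes, with 1 line for each of the 5 SB pancreas libraries and crosses for the 6 control libraries. The lines cross: SB replicate 1 was highest for DUOX2, replicate 5 for GPX2 and replicate 2 for PTGS2, and all 5 SB libraries were below the control mean for EPX.

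Covariation was measured over the 11 pancreas libraries after the mean of each diet was removed from log2 CPM, so that the diet difference by which the genes were picked does not enter. Over the 6 pairs, 3 correlations were positive and 3 negative, and none passed a test by 100000 permutations within the diets. DUOX2 and GPX2 had r = 0.31 (permutation p = 0.468, adjusted p = 0.702 over 6 pairs; rho = 0.43, permutation p = 0.272), and r was -0.08 without SB replicates 1 and 4, which were farthest from the median of DUOX2. It was 0.68 (permutation p = 0.133) without control replicate 4, which had the highest GPX2 level of the control libraries. DUOX2 and PTGS2 had r = 0.02 (permutation p = 0.971, rho = 0.07), and 0.29 without the same libraries. GPX2 and PTGS2 had the highest correlation, r = 0.47 (permutation p = 0.227, adjusted p = 0.512; rho = 0.54, permutation p = 0.190), which was 0.23 without control replicate 4 and SB replicate 5.

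EPX had r = -0.06 with DUOX2 (permutation p = 0.836, rho = 0.05), -0.41 with GPX2 (permutation p = 0.180, rho = -0.52) and -0.32 with PTGS2 (permutation p = 0.256, rho = -0.48). Without the 2 libraries farthest from the median, these were 0.16, -0.52 and -0.24. With the diet means kept, the 3 pairs among DUOX2, GPX2 and PTGS2 had r = 0.56, 0.44 and 0.64 in the order DUOX2 with GPX2, DUOX2 with PTGS2 and GPX2 with PTGS2, and the lowest adjusted p over the 6 pairs was 0.102 (permutation test). That version contains the diet difference. With 11 libraries, a p above the threshold does not show that the genes vary independently. The labels give no batch, and the correlations of the 4 genes with log2 total count within the diets had r from -0.34 to 0.01 (lowest permutation p = 0.382). Without the 2 libraries farthest from the median total, r was 0.27 for DUOX2, 0.06 for GPX2, 0.38 for PTGS2 and -0.15 for EPX. Correlations within the diets do not address the higher totals of SB pancreas.

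**Figure D5:**
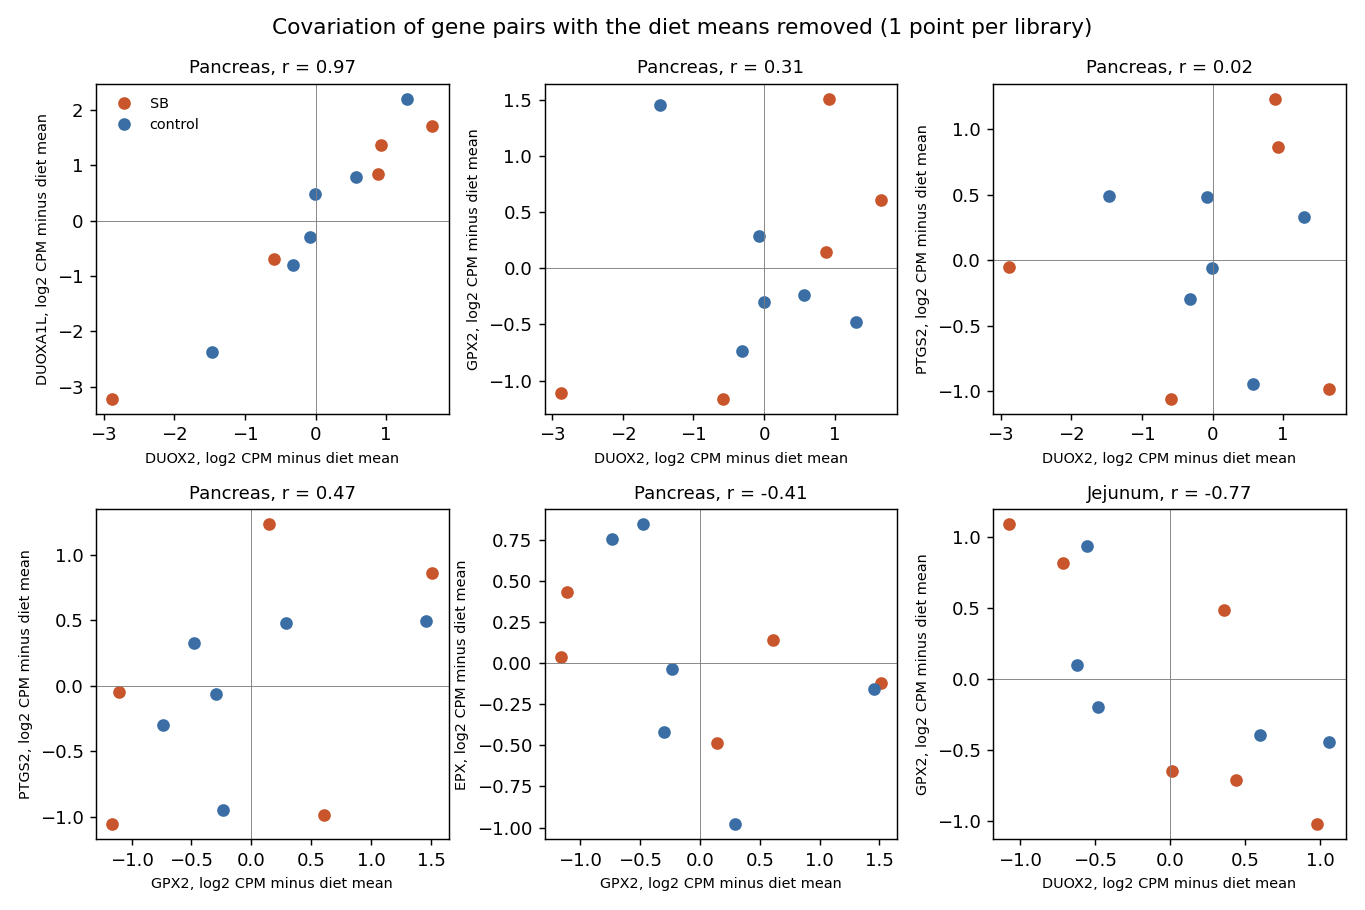
Log2 CPM minus the diet mean for pairs of genes, with 1 point per library (SB orange, control blue), 5 panels for the pancreas and the last for the jejunum. DUOX2 and DUOXA1L lie along a line (r = 0.97), pairs of the 4 genes in the pancreas scatter (r from -0.41 to 0.47 in the pairs drawn), and DUOX2 and GPX2 run in opposite directions in the jejunum (r = -0.77).

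A maturation factor gene followed DUOX2 closely. Among 11840 genes with a mean of at least 1 CPM in the pancreas, the gene with the highest diet-centred correlation with DUOX2 was DUOXA1L (ENSGALG00010022389; r = 0.97, n = 11), the maturation factor gene named above. The second was an identifier with no symbol tied to it (ENSGALG00010023042, r = 0.95) and the third was VNN2, a vanin, a pantetheinase (r = 0.91). DUOXA1L stood at 12.6, 6.91, 2.37, 0.401 and 9.95 CPM in SB pancreas, with the highest and lowest values in the libraries that were highest and lowest for DUOX2. In control pancreas it ranged from 0.0769 to 2.17 CPM. The means were 6.45 ± 5.10 CPM in SB-fed broilers and 0.722 ± 0.758 CPM in control broilers (SD, n = 5 and 6), with a log2 fold change of 3.17 ± 0.83 (SE; edgeR's quasi-likelihood test, unadjusted P = 0.00267, adjusted p = 0.995). In the jejunum, DUOXA1L had 0 to 14 counts per library and was not tested. DUOXA1L overlaps DUOX1 in the RefSeq table, and the strand setting of the counting was not given. Whether DUOXA1L and the DUOX2 identifier share reads was not tested. These correlations are the highest of many and carry no test. DUOXA1L was tied to its symbol through the study's list of pancreatic DEGs, so its diet difference is a description and no independent evidence. It met the minimum of 1 CPM through the SB libraries, since its control mean was 0.722 CPM. The second gene most like GPX2 was LOC107049808 (r = 0.86), and no other gene among the 3 most like GPX2, PTGS2 or EPX could be tied to a symbol.

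Of the marker genes that could be tied to identifiers, SCTR (the secretin receptor) and SPP1 (osteopontin), both found in pancreatic ducts, had diet-centred correlations with DUOX2 of 0.87 and 0.67 (n = 11). SCTR stood at 3.64, 3.24, 1.09, 0.759 and 2.85 CPM in SB pancreas, against 0.351 to 1.23 CPM in control pancreas, and 3 of 5 SB libraries were above all control libraries. SCTR had r = 0.50 with GPX2, 0.28 with PTGS2 and -0.31 with EPX, and SPP1 had 0.34, 0.10 and 0.37 in the same order. The goblet cell markers AGR2 and TFF3 had r = 0.53 and 0.44 with DUOX2. With GPX2, PTGS2 and EPX, AGR2 had r = 0.28, 0.28 and 0.22 and TFF3 had 0.15, -0.35 and -0.08. Their log2 fold changes of SB over control in the pancreas were 1.65 for SCTR, 1.47 for SPP1, 1.85 for AGR2 and 2.07 for TFF3. In the jejunum libraries, scaled by total counts only, SCTR stood at 9.01 to 20.1 CPM and AGR2 at 196 to 524 CPM. The pancreas values were scaled by TMM, so sizes are not compared between the tissues. Both genes were detected in every jejunum library (at least 494 counts for SCTR and 8857 for AGR2), and neither was particular to the pancreas. TFF3 stood at 0.541 to 3.76 CPM and SPP1 at 0 to 1.11 CPM in the same jejunum libraries, again by total counts. TFF3 ranged from 0.285 to 2.25 CPM in SB pancreas and from 0.117 to 0.268 CPM in control pancreas. The diets thus did not overlap, as in 0.276% of the genes tested there, but the lowest SB value lay just above the highest control value. These genes too were picked by the study as DEGs of the pancreas, and their part in the difference of DUOX2 was not tested.

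In the jejunum, where the genes had not been picked, 1 of the 6 diet-centred pairs had an adjusted p under 0.05 by rho, though not by r. DUOX2 and GPX2 had r = -0.77 over the 11 libraries (permutation p = 0.00913, adjusted p = 0.0548 over 6 pairs) and rho = -0.79 (permutation p = 0.00520, adjusted p = 0.0312). Without control replicate 1 and SB replicate 6, r was -0.71. The other 5 pairs had r from -0.29 to 0.24, with permutation p of at least 0.566. The correlation of the same pair was 0.31 in the pancreas, and the difference between the tissues was not tested.

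Tissues of 10 pairs of libraries carried the same column number, which may mark 1 broiler. With the diet means removed, the pancreas and jejunum levels of PTGS2 had r = 0.62 over these pairs (permutation p = 0.0837, adjusted p = 0.167 over the 4 genes; rho = 0.61, permutation p = 0.104) and those of GPX2 r = 0.64 (permutation p = 0.0803, adjusted p = 0.167; rho = 0.54, permutation p = 0.171), or 0.67 and 0.18 without the 2 pairs farthest from the median. DUOX2 had r = -0.42 (permutation p = 0.241) and EPX r = -0.03 (permutation p = 0.911). With the diet means kept, which brings in the diet difference by which the genes were picked, r was 0.66 for PTGS2 (permutation p = 0.0392, adjusted p = 0.115), 0.62 for GPX2, -0.22 for DUOX2 and 0.13 for EPX. No gene passed the adjusted test in either version.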

How the data were processed

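RNA from the jejunum and pancreas of SB-fed and control broilers was sequenced with a stranded mRNA kit. The authors used Trimmomatic for trimming, STAR for alignment (GRCg7b) and HTSeq for counting per gene, and deposited raw counts of 17007 genes without normalization. The strand setting, the treatment of multi-mapping reads and of mates, and the annotation release are not given in the sources used here. The authors excluded outlier samples that stood apart from their diet group, with lower performance (pancreas) or higher RNA concentration (jejunum) as a further ground. What this exclusion did to the diet differences was not tested. The authors also state that 1 broiler per pen gave both tissues. In each group, the mean deposited total is several times the mean of clean reads that the study states. How the counts relate to those reads was not tested. A second file of log2 values was not used.

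Genes with low counts were removed (filterByExpr, minimum count 10, minimum total 15), and libraries were scaled by TMM. SB was set against control in each tissue with glmQLFTest (edgeR 4.0.16, R 4.3.3, legacy = FALSE), and P was adjusted over all genes tested (Benjamini-Hochberg). Tissue differences and the interaction came from 1 fit over the 4 groups, with no block for broilers that gave both tissues. A tissue call needed an adjusted p under 0.05 and a log2 fold change of 1 or more in either direction. Log2 CPM had a prior count of 2, and the SE is the log2 fold change divided by the square root of F. The exact permutation tests between the diets were two-sided and used log2 CPM, or log2 totals for the library totals. Correlations were tested with 100000 permutations (exact for 6 libraries). Replicates are separate samples by label, and same replicate numbers do not pair them. P-values rest on the variation between these samples, and edgeR's quasi-likelihood test draws part of its estimate of that variation from all genes.

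The 4 genes and all lists were chosen with earlier results of these data known. The named genes are the 4, and for each the 3 genes most like it in the pancreas, named where a symbol was tied. Symbols were linked to identifiers through the study's list of pancreatic DEGs, 123 of whose 125 entries fell on 1 identifier. The other pathway and marker lists, and sequences, were not analysed here. The fits were tested on simulated counts with 1 dispersion shared by all genes, so that test does not cover genes as variable as DUOX2. Alternatives were limma-voom (limma 3.58.1), the Wald test and the size factors of DESeq2 1.42.0, the legacy and robust fits, other filters on low counts, thinned libraries, a replicate block, 1 fit over both tissues and each library left out in turn. Scaling by total counts and the libraries whose numbers both tissues share, without a block, were added after seeing the data.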

Additional observations from a re-analysis of the deposited data

Results flagged for a closer look

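GPX2 had 3.15 CPM in control replicate 4 of the pancreas, where the next highest control library had 1.40 CPM, and 18.4 CPM in control replicate 4 of the jejunum, where the next had 10.3 CPM. Each gap was large relative to the range of its group (Dixon's test on CPM), in the jejunum only just past the critical value. On log2 CPM, the scale of the permutation tests and correlations, each gap was a smaller share of the range. Dixon's test was not run on that scale, so the flags hold for CPM only. In 16 groups tested (4 genes in 4 groups), chance alone flags about 1 in 20 if CPM is normally distributed, which was not tested. Both libraries carry the column number 39, which may mark 1 broiler, so these flags may not be independent of each other. Without control replicate 4 of the pancreas, the log2 fold change of GPX2 (SB over control) was 1.71, against 1.23 with all libraries.

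The diet difference of DUOX2 in the pancreas exceeded that in the jejunum by 2.64 on the log2 scale (edgeR's quasi-likelihood test, unadjusted P = 0.00434), and that of PTGS2 by 1.14 (unadjusted P = 0.0220). With the column number shared by the tissues as a block, PTGS2 gave 0.79 and no longer passed the thresholds. After adjustment over 15032 genes neither passed (adjusted p = 1.00), and both genes had been picked from the pancreas contrast.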

How the results depend on the processing

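The number of genes past the thresholds in the pancreas was 155 (93 higher and 62 lower in SB). It was 100 with limma-voom (58 and 42), 333 without a filter on low counts (148 and 185), 60 with a filter of 1 CPM in 5 libraries (49 and 11), 300 in 1 fit over both tissues (150 and 150), 141 with total counts as the only scaling (68 and 73) and 125 with the legacy fit (89 and 36). It ranged from 144 to 236 with 1 library left out, the highest without SB replicate 1. In the jejunum it was 49, against 148 without a filter and 21 with the stricter filter, and ranged from 44 to 83 with 1 library left out, the highest without SB replicate 1. The count for the difference between the tissues in the diet effect was 230, against 138 with limma-voom and 131 with the stricter filter, and ranged from 207 to 354 with 1 library left out, the highest without pancreas SB replicate 1. The tissue count was 6057, against 11748 with total counts as the only scaling. The cause of these shifts was not tested beyond the number of genes each filter keeps.

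In the pancreas, DUOX2 kept its call in 10 of 11 alternatives and without each of 11 libraries, GPX2 in 8 of 11 and 3 of 11, PTGS2 in 11 of 11 and 10 of 11, and EPX in 8 of 10 and 8 of 11, since the stricter filter left EPX out. With the replicate number as a block, GPX2 lost its call in the pancreas (log2 fold change 1.10, unadjusted P of 0.121 in edgeR, 122 genes past the thresholds) and gave -0.26 in the jejunum (43 genes). Same-numbered libraries correlated at -0.52 to 0.24 in the pancreas and -0.40 to 0.17 in the jejunum, so replicate numbers share only a name. Column numbers shared by both tissues gave -0.04 to 0.20, with the own number best among the 11 jejunum libraries in 5 of 10. Whether equal column numbers mark 1 broiler was not tested further. With column number as a block, the DUOX2 interaction was 2.69, still past the thresholds, and that of PTGS2 was 0.79 and no longer past them.

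In the jejunum, GPX2 was -0.048 with limma-voom and ranged from -0.16 to 0.42 with 1 library left out, and EPX from -0.32 to 0.30. PTGS2 and EPX became -1.32 and -0.99 in the tissue comparison with total counts as the only scaling. GPX2 passed the tissue thresholds with that scaling (-2.37) and without pancreas SB replicate 5 (-1.002). PTGS2 too passed them with that scaling, as lower in the pancreas (-1.32; edgeR's quasi-likelihood test, adjusted p = 8.09e-06), among 11748 genes that did.

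Of the 6 pancreas pairs, 2 to 4 were positive over 7 alternatives, and 2 or 3 with 1 library left out. By Spearman's rho, DUOX2 and EPX gave 0.055. In the 6 control libraries alone, r was -0.73 for DUOX2 and GPX2, -0.30 for DUOX2 and PTGS2 and 0.35 for DUOX2 and EPX. With 1 library left out, these pairs ranged from -0.037 to 0.68, from -0.14 to 0.28 and from -0.31 to 0.26. Low counts limit EPX (17 to 93 counts per pancreas library).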
